A study of Saccharomyces cerevisiae with 6 samples.

Results

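The genes described here encode subunits of the 26S proteasome. They were taken by name from a list of subunits of the core particle and of its regulatory cap, not by their level. All 32 were found among 5605 nuclear mRNA features, of 5667 features listed in the tables: 14 of the core, 10 of the base and 8 of the lid. The sequenced RNA came from isolated mitochondria of the budding yeast strain CEN.PK113-7D, a prototrophic haploid used in the laboratory, with no engineered allele named in the labels. A group of 3 cultures had grown in synthetic medium with ethanol (ethanol-glycerol, per the growth protocol) and a group of 3 in the same kind of medium with glucose, all in shake flasks to mid-exponential phase. The series' design text calls the cultures of each group a biological triplicate, and the question it names is how the mitochondrial transcriptome differs between the carbon sources. RNA was tailed with an enzyme and read directly on a Nanopore instrument.

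The proteasome degrades proteins that carry chains of ubiquitin. Its core is a barrel of outer alpha rings and inner beta rings, and its proteolytic sites lie inside the barrel on a few of the beta subunits. The base of the cap holds a ring of ATPases that unfold substrates and thread them into the core, together with ubiquitin receptors, and the lid carries the deubiquitinase RPN11, which removes the chains. In yeast the transcription factor RPN4 activates most of these genes and is itself a short-lived proteasome substrate. None of the subunits is encoded by the mitochondrial genome. Their mRNAs in this material are nuclear transcripts that came with the isolated organelles, so the level of an mRNA in the cell and the amount that came with the mitochondria cannot be told apart.

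The deposited CPM moved in steps that gave the value of 1 read and so the reads behind each library, 267509 to 1093126 in all. Nuclear mRNA took a small and uneven part. Without the enolase gene ENO2 there were 8284, 19087 and 63081 nuclear mRNA reads in ethanol replicates 1, 2 and 3, and 97474 to 121147 in the glucose libraries. ENO2 alone took 4.94%, 49.9% and 21.9% of the CPM in the ethanol libraries and 2.63% to 6.81% in the glucose libraries, and the mitochondrial genome took 3.15% to 12.6% over the 6 libraries. All levels below are therefore shares of the nuclear mRNA CPM without ENO2, in percent or scaled to a total of 1000000, which is called nuclear RPM here. On this scale 1 read was worth 121, 52.4 and 15.9 nuclear RPM in the ethanol libraries and 8.25 to 10.3 in the glucose libraries. A feature without a read could hold up to 3 reads, which is 362 nuclear RPM in ethanol replicate 1. Intervals and this limit cover counting error only. Where 3 values follow each other for a group, they are those of replicates 1, 2 and 3.

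On this scale the proteasome genes together took a larger share of nuclear mRNA in ethanol than in glucose. The share was 1.31%, 1.34% and 1.25% in ethanol, from 108, 256 and 792 reads, with 95% Wilson intervals of 1.08% to 1.57%, 1.19% to 1.51% and 1.17% to 1.35%. In glucose it was 0.909%, 0.795% and 0.799%, from 1101, 775 and 857 reads, with intervals of 0.857% to 0.964%, 0.741% to 0.853% and 0.747% to 0.854%. Every ethanol library lay above every glucose library, and the intervals of the groups did not meet. The means were 1.30% ± 0.0450 and 0.834% ± 0.0647 (SD, n = 3), a ratio of 1.56. The ethanol libraries agreed closely although their depths differed widely, and with ethanol replicate 3 as the only ethanol library the log2 ratio was 0.59, against 0.64 with all 3. No test was made of sums over these genes, which were chosen with earlier results of the data known.

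The direction of the sum was set by the total it was divided by. With ENO2 kept in the nuclear mRNA total the log2 ratio of ethanol to glucose was -1.24 in place of 0.64, and on the deposited CPM it was -0.26 with overlapping groups. In deposited CPM the 32 genes together had a mean of 755 ± 554 in ethanol and 902 ± 243 in glucose (SD, n = 3). The results below hold for the scale without ENO2.

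The core genes, whose products form the barrel, took 0.592%, 0.529% and 0.528% of nuclear mRNA in ethanol and 0.349%, 0.341% and 0.341% in glucose. The glucose libraries differed hardly at all, with a mean of 0.344% ± 0.00481 against 0.550% ± 0.0364 in ethanol (SD, n = 3, ratio 1.60). The base took 0.380%, 0.513% and 0.432% in ethanol and 0.359%, 0.265% and 0.301% in glucose. Its groups were close to touching (ratio of means 1.43). Ethanol replicate 1, with 31 reads of base genes, had an interval of 0.264% to 0.531% that covers all glucose values. The lid took 0.338%, 0.301% and 0.295% in ethanol and 0.201%, 0.189% and 0.157% in glucose (ratio 1.71). All 3 assemblies were thus higher in each ethanol library than in any glucose library. For the base this did not hold without RPN2, its gene with the highest mean CPM. The groups then overlapped, at a log2 ratio of 0.58. With ENO2 in the total all 3 assemblies were lower, with log2 ratios of -1.20, -1.37 and -1.10 for core, base and lid.

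**Figure D1:**
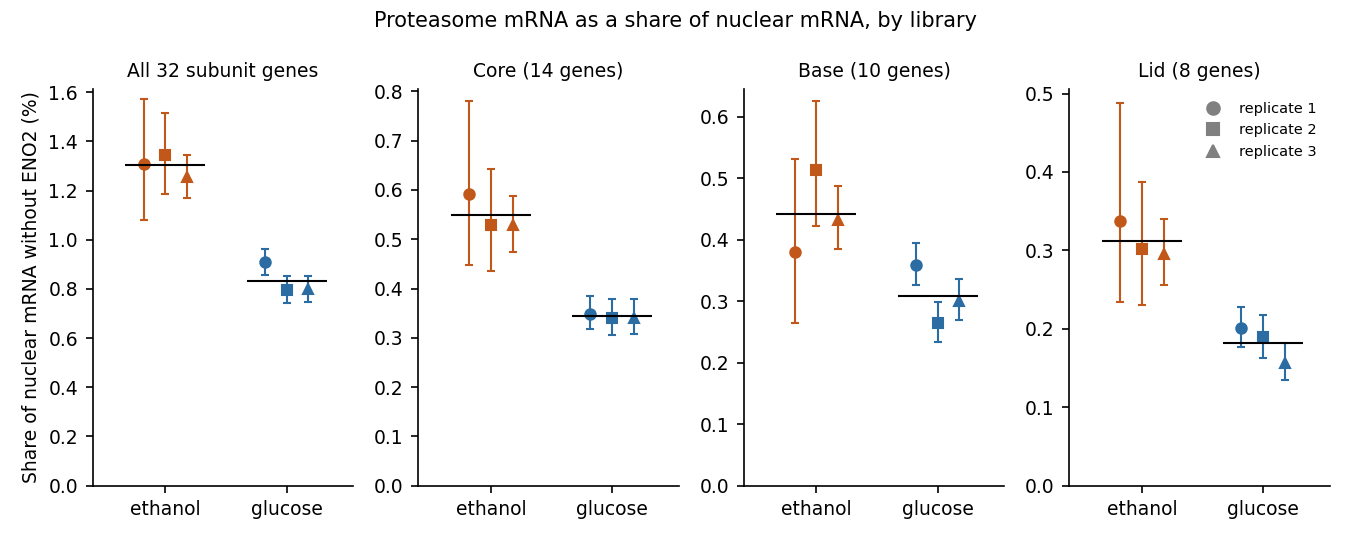
Share of nuclear mRNA without ENO2 (%) taken by all 32 proteasome subunit genes and by those of the core, base and lid; points are libraries, error bars 95% Wilson intervals of the share and black lines group means. The ethanol libraries sit between 1.25% and 1.34% for all genes and the glucose libraries between 0.795% and 0.909%; with ENO2 in the total the order of the groups reverses.

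Within the assemblies the subcomplexes with like roles were compared in the same way. The alpha ring had a ratio of ethanol to glucose means of 1.74 and the beta ring of 1.45, and the catalytic beta subunits alone of 1.51. The ATPases of the base had a ratio of 1.59. In all of these the groups did not overlap, but only the alpha ring had every ethanol interval above all glucose values. For the ATPases, ethanol replicate 1 held 16 reads, and its interval of 0.119% to 0.314% covers all glucose values. For the catalytic subunits, ethanol replicate 2 held 18 reads, and its interval of 0.0597% to 0.149% covers all glucose values. Ethanol replicate 1 held 12 reads of them, and its interval of 0.0829% to 0.253% covers the values of glucose replicates 2 and 3. For the beta ring, ethanol replicate 1 held 20 reads, and its interval of 0.156% to 0.373% covers the values of glucose replicates 1 and 2. The interval of ethanol replicate 2, 0.154% to 0.285% from 40 reads, covers the same values. RPN1 and RPN2, the large scaffold proteins of the base, together took 0.121%, 0.0943% and 0.0983% of nuclear mRNA in ethanol and 0.135%, 0.0964% and 0.0988% in glucose. Their groups overlapped, with a ratio of 0.948, while the base without them had a ratio of 1.70 and groups that did not overlap. In ethanol replicate 1 the base without them held 21 reads. The interval there, 0.166% to 0.387%, covers the glucose values of 0.169% to 0.224%. This split was made after the values were seen. The 4 base genes that are not ATPases together had a ratio of 1.25 and overlapping groups.

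Differences at single genes were sought with limma on log2(value + 100), fitted over 1693 features with a mean of at least 10 deposited CPM. All 32 proteasome genes passed that filter, with means of 13.99 to 50.4 CPM, and none overlapped another listed feature. A log2 fold change is that of ethanol minus glucose on this scale, which understates changes of low genes. It was above 0 for 28 of the 32 proteasome genes, against 44.1% of all features tested. The median was 0.39 (range -0.60 to 1.14) for the proteasome genes and -0.18 for all features. The groups did not overlap, with ethanol higher, for 13 of the 32, against 24.5% of all features, and with ethanol lower for none of them, against 31.4%. Past an adjusted p of 0.05 were 6 proteasome genes, all higher in ethanol. That count is near the background, since 17.5% of all features tested passed as higher and 19.2% as lower. Standard errors of the 32 fold changes were 0.26 to 0.54.

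How many single genes passed rested on the libraries in the fit. Leaving out ethanol replicate 1, 2 or 3 in turn, limma called 10, 2 and 9 of them higher, where it called 18.4%, 15.2% and 23.0% of all features higher. The genes that passed without ethanol replicate 2 were PUP2 and RPN3, and RPN1 passed as lower without ethanol replicate 3, where 518 of 1693 features did. Without glucose replicates 1, 2 or 3 no proteasome gene passed in limma, where 11.3%, 9.57% and 9.39% of all features passed as higher. At an unadjusted p under 0.05 (limma), 6, 5 and 5 were higher, and the share of all features at that threshold was not computed for these fits. With all libraries 9 of the 32 were higher at an unadjusted p under 0.05 (limma), against 381 of 1693 features. By voom on the recovered reads 9 were higher, against 21.6% of all features. With ENO2 in the total 23 passed, all as lower, against 70.3% of all features.

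Of the alpha ring genes, PUP2 had the clearest difference. PUP2 (chromosome 7, 1024614 to 1025396, minus strand) had 845, 524 and 539 nuclear RPM in ethanol and 239, 236 and 214 in glucose. The glucose libraries lay within a narrow band and every ethanol library was above it. Its log2 fold change was 1.13 ± 0.27 (SE, limma adjusted p = 0.0134). SCL1 (chromosome 7, 492370 to 493128, minus strand), another alpha subunit, had 966, 472 and 547 nuclear RPM in ethanol and 314, 298 and 377 in glucose. The groups did not overlap, but the difference did not pass the threshold, at 0.78 ± 0.31 (SE, limma adjusted p = 0.0734). PRE10 had 724, 576 and 380.5 nuclear RPM in ethanol and 334, 298 and 354 in glucose, also without overlap, at 0.59 ± 0.28 (SE, limma adjusted p = 0.126). SCL1 and PRE10 passed without ethanol replicate 3, at 0.87 and 0.80 (limma adjusted p = 0.0479 and 0.0170). PRE5 had 241, 786 and 476 nuclear RPM in ethanol and 347, 236 and 279.6 in glucose. Its ethanol replicate 1 held 2 reads and fell among the glucose values, and its log2 fold change was 0.54 ± 0.37 (SE, limma adjusted p = 0.266). Without that library it was 0.89 and passed (limma adjusted p = 0.0437). The other alpha ring genes, PRE6, PRE8 and PRE9, had overlapping groups and log2 fold changes of 0.09, 0.15 and 0.21.

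The proteolytic sites are on PRE3, PUP1 and PRE2, which carry the caspase-like, trypsin-like and chymotrypsin-like activities. Of these, PUP1 passed the threshold. PUP1 (chromosome 15, 625327 to 626112, minus strand) had 483, 681 and 349 nuclear RPM in ethanol and 223, 185 and 168 in glucose, and no ethanol library reached down to the glucose values. Its log2 fold change was 1.02 ± 0.29 (SE, limma adjusted p = 0.0252). PRE2 had 483, 105 and 539 nuclear RPM in ethanol and 330.2, 400.1 and 345 in glucose. Ethanol replicate 2, with 2 reads, was the lowest of all libraries and the other ethanol libraries were the highest. Its log2 fold change was -0.11 ± 0.43 (SE, limma adjusted p = 0.845), and 0.42 without ethanol replicate 2. PRE3 had 483, 157 and 507 nuclear RPM in ethanol and 215, 287 and 363 in glucose, with the same ethanol library lowest, at 0.23 ± 0.38 (SE, limma adjusted p = 0.652). A difference between these 3 genes in their response was not tested. Of the non-catalytic beta genes, PUP3 had groups that did not overlap and a difference on the log2 scale of 0.82 ± 0.30 (SE, limma adjusted p = 0.0633). Ethanol replicate 1 held 2 reads of PUP3. PRE4 and PRE7 had log2 fold changes of 0.37 and 0.42 with overlapping groups. PRE1 had no read in ethanol replicate 2, which allows up to 157 nuclear RPM there, and a difference on the log2 scale of -0.54 ± 0.54 (SE, limma adjusted p = 0.445).

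**Figure D2:**
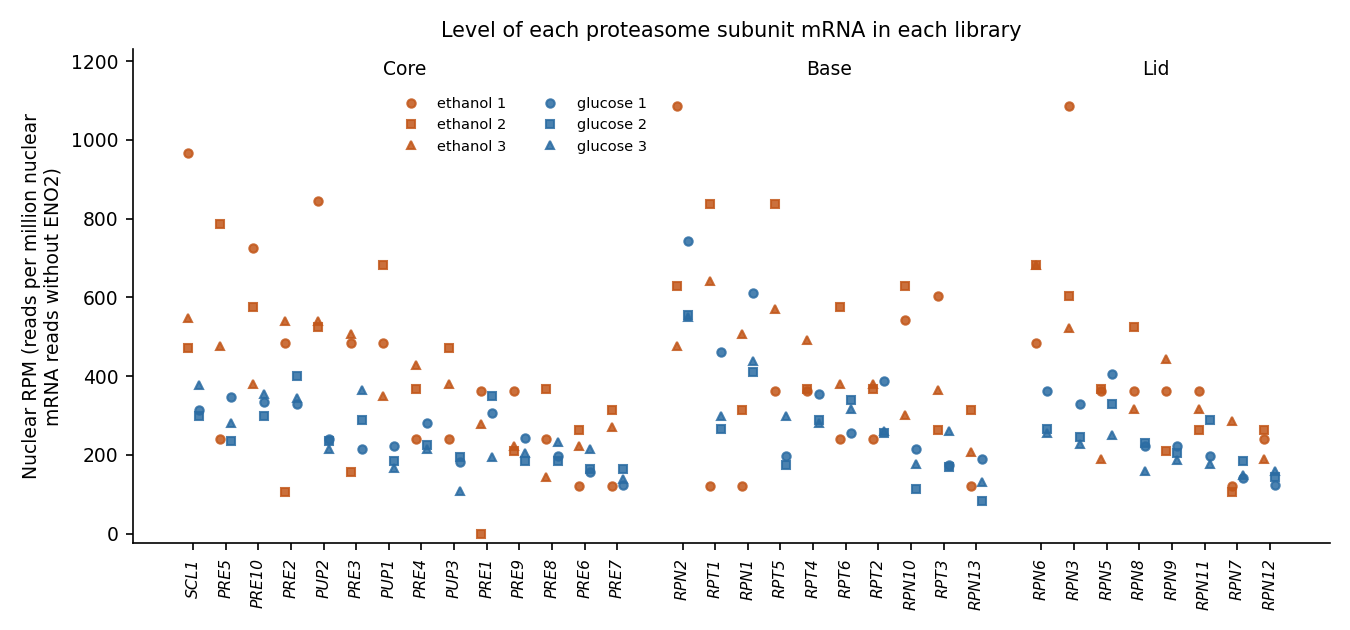
Level of each subunit mRNA in each library, in nuclear RPM (scaled to nuclear mRNA without ENO2), ordered by mean CPM within core, base and lid. Levels ran from 0 (PRE1 in ethanol replicate 2) to 1086 (RPN2 and RPN3 in ethanol replicate 1); the ethanol points scatter more than the glucose points, and the group order of the genes depends on leaving ENO2 out of the total.

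The ATPases of the base share 1 ring but spread widely in ethanol. RPT5 (chromosome 15, 544904 to 546208, plus strand) had 362, 838 and 571 nuclear RPM in ethanol and 198, 174 and 298 in glucose, and its groups did not overlap. Ethanol replicate 1 held 3 reads of RPT5, and 1 read fewer would have put it below glucose replicate 3. The log2 fold change of RPT5 was 1.05 ± 0.33 (SE, limma adjusted p = 0.035). RPT1 had 121, 838 and 642 nuclear RPM in ethanol and 462, 267 and 298 in glucose. A single read in ethanol replicate 1 put it below all glucose libraries, while the other ethanol libraries lay above them, so the groups overlapped at 0.30 ± 0.52 (SE, limma adjusted p = 0.664). Without that library the log2 fold change was 0.94 (limma adjusted p = 0.0368), and without ethanol replicate 2 it was -0.10. RPT3 and RPT4 had groups that did not overlap, but by less than the worth of 1 read. RPT3 had 262 nuclear RPM in ethanol replicate 2, from 5 reads, against 261 in glucose replicate 3. RPT4 had 362 in ethanol replicate 1, from 3 reads, against 355 in glucose replicate 1. Their log2 fold changes of 0.72 and 0.31 did not pass (limma adjusted p = 0.103 and 0.354). For RPT2 and RPT6 the groups overlapped and the log2 fold changes were 0.10 and 0.26.

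RPN2 and RPN1, the scaffolds that hold ubiquitin receptors and shuttle factors, were the longest genes of the set. RPN2 (chromosome 9, 206631 to 209468, minus strand) had 1086, 629 and 476 nuclear RPM in ethanol and 743, 554 and 549.8 in glucose. The groups overlapped, and its log2 difference of 0.16 ± 0.32 (SE, limma adjusted p = 0.719) became -0.13 without ethanol replicate 1. RPN1 (chromosome 8, 158251 to 161232, minus strand) had 121, 314 and 507 nuclear RPM in ethanol and 611, 410.4 and 438 in glucose, from 1 read in ethanol replicate 1. It had the lowest log2 fold change of the set, -0.60 ± 0.39 (SE, limma adjusted p = 0.236), which was -0.94 without ethanol replicate 3 (limma adjusted p = 0.0475) and -0.21 without ethanol replicate 1. RPN10 (chromosome 8, 499429 to 500235, plus strand), a ubiquitin receptor, had 543, 629 and 301 nuclear RPM in ethanol and 215, 113 and 177 in glucose. Every ethanol library was above every glucose library, and the log2 fold change was 1.11 ± 0.32 (SE, limma adjusted p = 0.0255). RPN13, also a ubiquitin receptor of the base, had overlapping groups and a log2 fold change of 0.40.

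In the lid, RPN3 (chromosome 5, 197815 to 199386, plus strand) had 1086, 602 and 523 nuclear RPM in ethanol and 330.2, 246 and 228 in glucose. The groups did not overlap, and the log2 difference of 1.14 ± 0.32 (SE, limma adjusted p = 0.0231) was the highest of the 32. RPN6 (chromosome 4, 285094 to 286398, minus strand), which clamps the lid to the core, had 483, 681 and 682 nuclear RPM in ethanol and 363, 267 and 256 in glucose, again without overlap. Ethanol replicate 1 held 4 reads of RPN6, and 1 read fewer would have put it just below glucose replicate 1. The difference on the log2 scale was 0.85 ± 0.27 (SE, limma adjusted p = 0.0352). RPN8, the partner of RPN11, had 362, 524 and 317 nuclear RPM in ethanol and 223, 231 and 158 in glucose, without overlap. Ethanol replicate 1 held 3 reads of RPN8. The difference was not past the threshold, at 0.71 ± 0.28 (SE, limma adjusted p = 0.0729), and past it without ethanol replicate 3 (limma adjusted p = 0.0295). RPN5 had 362, 367 and 190.2 nuclear RPM in ethanol and 404, 328 and 252 in glucose. Its groups overlapped and its log2 fold change was -0.09 ± 0.30 (SE, limma adjusted p = 0.818). RPN11, the deubiquitinase, had overlapping groups and 0.38 (limma adjusted p = 0.287). RPN12 had groups that did not overlap, at 0.45, with 2 reads in ethanol replicate 1. RPN9 and RPN7 overlapped, at 0.49 and 0.01. The directions of PUP2, PUP1, RPT5, RPN10, RPN3 and RPN6 reversed with ENO2 in the total, where their log2 fold changes were -0.28, -0.32, -0.32, -0.23, -0.32 and -0.52.

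**Figure D3:**
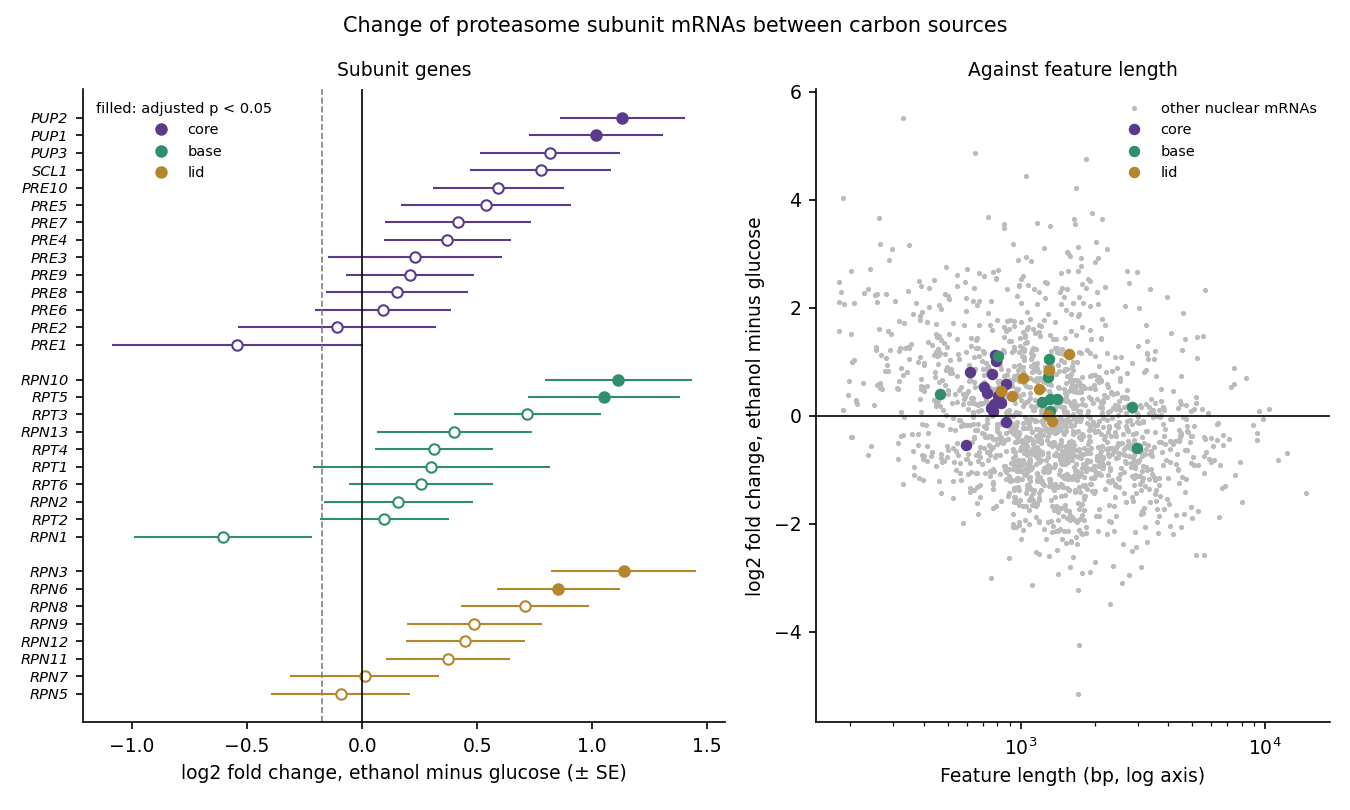
Left, log2 fold change (ethanol minus glucose) of each subunit gene with its standard error, filled where the limma adjusted p was under 0.05, with a dashed line at the median of all features tested (-0.18). Right, the same fold change against feature length (bp, log axis) for all nuclear mRNAs tested; 28 of the 32 subunit genes lie above 0, the lowest is RPN1 at -0.60, and with ENO2 in the total all 32 lie below 0.

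The genes also varied among themselves, and more so in the shallow libraries. The median number of reads per gene was 3, 7 and 24 in ethanol and 29.3, 23 and 24.8 in glucose. The coefficient of variation across the 32 levels was 0.667, 0.523 and 0.359 in ethanol and 0.475, 0.384 and 0.388 in glucose. Pearson's r of the 32 levels, taken as log2(value + 100), was 0.744 to 0.776 between glucose libraries, 0.208 to 0.377 between ethanol libraries and -0.06 to 0.530 between groups. These describe 32 genes within single libraries, which share their depth, and are not tests. Counted in each ethanol library by itself, 21, 21 and 25 of the 32 genes were above all glucose libraries, where 38.6%, 39.3% and 40.5% of all features tested were.

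Per length, core genes had the highest levels, an order that rests on the division by length. Core genes were the shortest, with a median of 771 bp, against 1309.5 bp for the base and 1236 bp for the lid. Without that division the median level over genes was highest for the base in both groups. The median over genes was 297 nuclear RPM per kb in glucose for the core, 223 for the base and 187 for the lid, and 449, 323 and 314 in ethanol. In ethanol the genes ran from 105 nuclear RPM per kb for RPN1 to 871 for SCL1. The balance of the assemblies, as ratios of summed CPM, did not separate the groups. Core over base was 1.56, 1.03 and 1.22 in ethanol and 0.972, 1.28 and 1.13 in glucose. Core over lid was 1.75, 1.76 and 1.79 in ethanol and 1.74, 1.80 and 2.18 in glucose, and alpha over beta ring was 1.45, 1.53 and 0.919 against 1.10, 0.886 and 1.23. RPN1 and RPN2 over the ATPases was 0.625, 0.290 and 0.347 in ethanol and 0.739, 0.646 and 0.576 in glucose, where ethanol replicate 1 lay among the glucose libraries. The part of RPN1 and RPN2 in the whole, a split made after the values were seen, did not overlap between the groups. It was 9.22%, 7.02% and 7.83% of the proteasome CPM in ethanol and 14.9%, 12.1% and 12.4% in glucose. The ethanol values rest on 10, 18 and 62 reads, and in ethanol replicate 1 these were 9 of RPN2 and 1 of RPN1. No interval was computed for this part. The group means were 8.02% ± 1.11 and 13.1% ± 1.53 (SD, n = 3). This part depends on no total outside the proteasome genes.

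**Figure D4:**
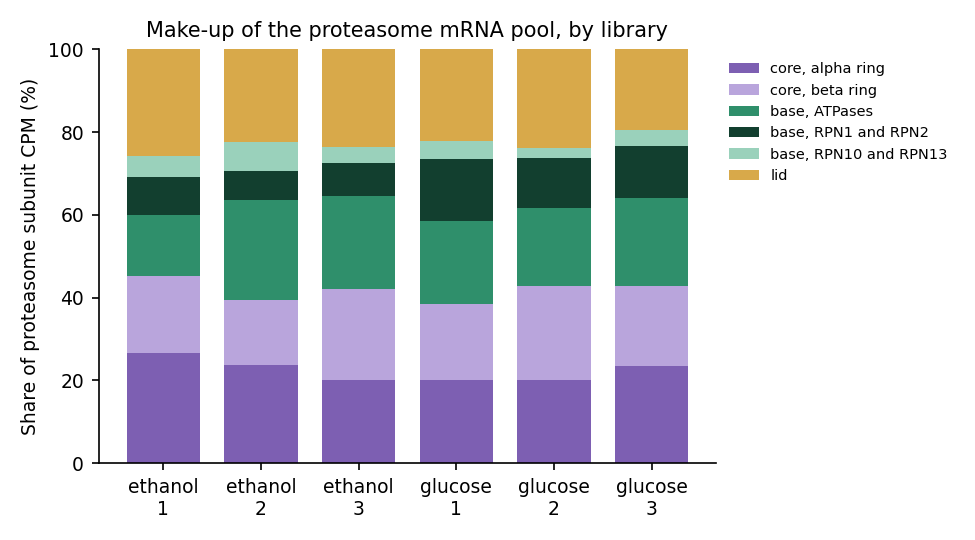
Make-up of the proteasome mRNA pool in each library, in percent of the summed CPM of the 32 genes, split by ring, ATPases, RPN1 with RPN2, RPN10 with RPN13, and lid. The part of RPN1 and RPN2 is 7.02% to 9.22% in ethanol and 12.1% to 14.9% in glucose, while the parts of core and lid overlap between the groups.

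Feature length and the share of ribosomal protein mRNA moved with the groups. The mean feature length, weighted by nuclear mRNA level, was 1329, 1303 and 1467 bp in ethanol and 1615, 1621 and 1665 bp in glucose. Over the 1665 nuclear mRNAs tested, the log2 fold change and log2 length had a Pearson's r of -0.288. Across the 32 proteasome genes r was -0.198, and without RPN1 and RPN2, the longest at 2982 and 2838 bp, it was 0.103 (n = 30). Set against nuclear mRNAs of 465 to 2982 bp only, the range of the proteasome genes, the log2 ratio of the proteasome share was 0.73. With each library's trend with length removed, the median log2 fold change was 0.23 for the 32 genes and -0.12 for all features, so that the gap between them was 0.35 in place of 0.56. In that fit 4 of the 32 passed as higher, against 15.2% of all features. PUP1, RPN10 and UMP1 no longer passed there (limma adjusted p = 0.0612, 0.0536 and 0.0775). The 127 cytosolic ribosomal protein genes took 8.14%, 7.85% and 8.85% of nuclear mRNA in ethanol and 13.8%, 15.3% and 14.6% in glucose. Without them in the total the log2 ratio of the proteasome share was 0.54, and the groups still did not overlap, while those of the base did. The settings on length were added after seeing the data, and the part of length in the share of RPN1 and RPN2 was not tested.

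Other genes of the pathway were taken from lists of proteasome assembly and regulation and of ubiquitin transfer and substrate delivery. Of 15 assembly and regulation genes, 14 were matched by name and 6 had a mean of at least 10 CPM. Of these 6, UMP1 and SPG5 rose, where 17.5% of all features tested passed as higher and 19.2% as lower. None of the 6 passed as lower, which says little at this number, and the median log2 fold change was 0.51, against -0.18 over all features. UMP1, a chaperone of core assembly, had 483, 629 and 380.5 nuclear RPM in ethanol and 165, 154 and 158 in glucose, at 1.18 ± 0.27 (SE, limma adjusted p = 0.0105). SPG5, which binds the proteasome in stationary phase, had 241, 629 and 380.5 nuclear RPM in ethanol and 82.5, 82.1 and 27.96 in glucose, at 1.60 ± 0.35 (SE, limma adjusted p = 0.00922). For both, every ethanol library was above every glucose library, though ethanol replicate 1 held only 2 reads of SPG5. With ENO2 in the total the log2 fold change of UMP1 was -0.17, while SPG5 kept its direction in every alternative run. UMP1 no longer passed without any 1 of the glucose libraries (limma adjusted p = 0.0514 to 0.0591), and SPG5 no longer passed without glucose replicate 3 (limma adjusted p = 0.0543). BLM10, an alternative activator that caps the core, had 121, 157 and 365 nuclear RPM in ethanol and 256, 205 and 224 in glucose, with overlap, at -0.14 ± 0.33 (SE, limma adjusted p = 0.761). RPN4, the activator of the subunit genes, is named outside the rule for named genes. It had 0, 314 and 269 nuclear RPM in ethanol and 82.5, 92.3 and 46.6 in glucose. The absence of reads in ethanol replicate 1 allows up to 362 nuclear RPM, so no order of the groups can be read from that library, and the log2 fold change was 0.52 ± 0.53 (SE, limma adjusted p = 0.449). Without that library it was 1.18 (limma adjusted p = 0.0113), with both other ethanol libraries above the glucose libraries, and with ENO2 in the total it was -0.16.

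Of 21 ubiquitin transfer and delivery genes, 20 were matched and 12 had a mean of at least 10 CPM. Of these 12, UBC5 and SHP1 rose and none passed as lower. That count is near the 17.5% of all features that passed as higher, and the median was 0.22, against -0.18 over all features. UBC5, a ubiquitin-conjugating enzyme, had 362, 838 and 349 nuclear RPM in ethanol and 41.3, 41.04 and 18.6 in glucose. Its log2 fold change was 2.12 ± 0.35 (SE, limma adjusted p = 0.00293), above that of every proteasome gene. SHP1, an adaptor of the unfoldase CDC48, had 362, 524 and 412 nuclear RPM in ethanol and 215, 103 and 130.5 in glucose, at 1.11 ± 0.29 (SE, limma adjusted p = 0.0175), and -0.17 with ENO2 in the total. It no longer passed without glucose replicate 2 or 3 (limma adjusted p = 0.0976 and 0.0848). CDC48 itself had 724, 1362 and 1236 nuclear RPM in ethanol and 854, 928 and 839 in glucose, at 0.27 ± 0.29 (SE, limma adjusted p = 0.482). UBA1, the ubiquitin-activating enzyme, had 604, 367 and 412 nuclear RPM in ethanol and 347, 446 and 354 in glucose, at 0.20 ± 0.27 (SE, limma adjusted p = 0.576). UBC4, a close paralog of UBC5, had 362, 314 and 333 nuclear RPM in ethanol and 627, 472 and 373 in glucose. Every ethanol library was below every glucose library, at -0.42 ± 0.27 (SE, limma adjusted p = 0.238). The ratio of UBC5 to UBC4 reads, chosen after the values were seen, was 1.00, 2.67 and 1.05 in ethanol, and 0.0658 and 0.0870 in glucose replicates 1 and 2. In glucose replicate 3 there were 2 UBC5 reads and 40 UBC4 reads. The ethanol ratios rest on as few as 3 reads of each gene in ethanol replicate 1. Reads of such close paralogs could be shared between them, so the levels of both are uncertain to that extent.

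**Figure D5:**
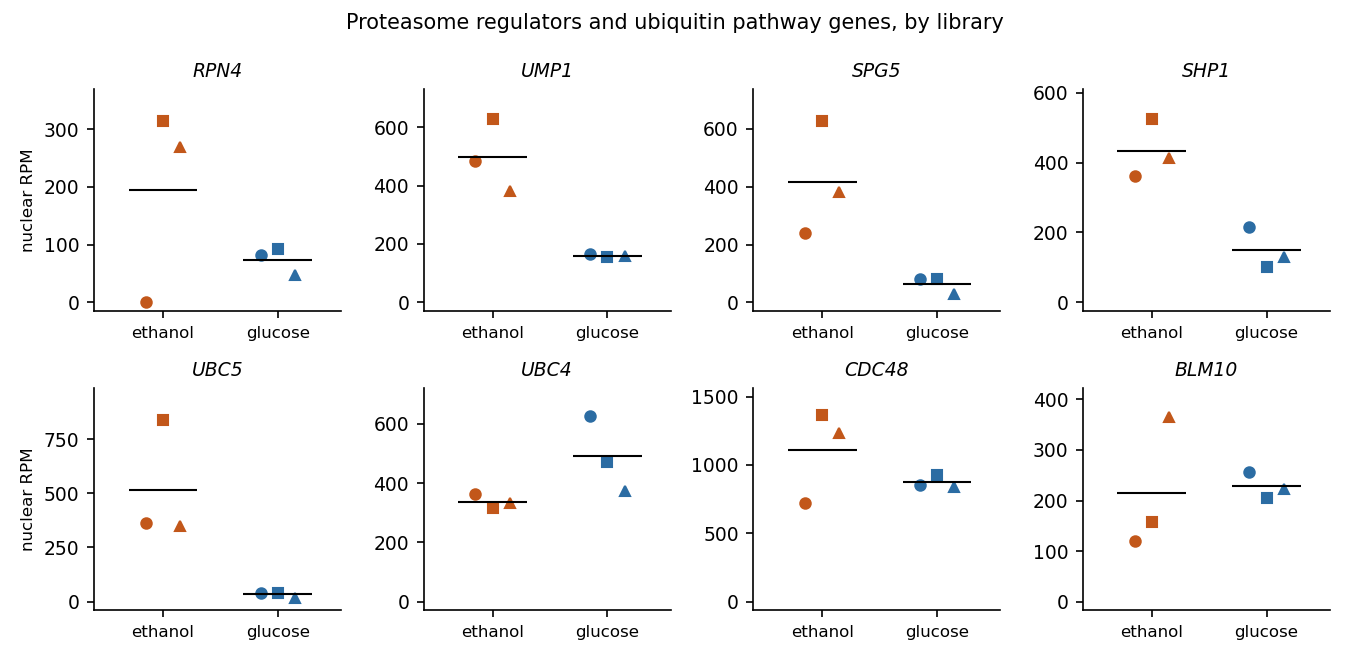
Level, in nuclear RPM (scaled to nuclear mRNA without ENO2), of proteasome regulators and ubiquitin pathway genes, 1 panel a gene; points are libraries and black lines group means. UBC5, UMP1, SPG5 and SHP1 are higher in all ethanol libraries than in any glucose library, which for UMP1 and SHP1 reverses in mean direction with ENO2 in the total, while BLM10, CDC48 and RPN4 overlap.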

How the data were processed

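RNA from isolated mitochondria of 3 ethanol and 3 glucose cultures had been sequenced with the Nanopore direct RNA kit after enzymatic poly(A) tailing, per the labels' protocols. The authors deposited CPM values per feature, 1 table per carbon source, which sum to 1000000 in each library; STAR 2.5.4a, SAMtools, featureCounts and edgeR are named in the submitters' processing notes without a role. Positions are on a CEN.PK113-7D assembly, per the file headers. Whether counting used strand is not given in the sources used here. Reads were recovered from the steps of the deposited CPM; 89.1% to 94.9% of nonzero values per library, and 93.2% of the 191 nonzero values of the proteasome genes, came out whole within 0.01 read, so some reads had been split between features and no count model served as the main test.

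From the deposited values, sets of 11 and 2 rRNA copies and features listed under 2 classes were merged, leaving 5654 features. Each value was divided by the library's nuclear mRNA CPM without ENO2 and scaled to a total of 1000000 (nuclear RPM). Shares have 95% Wilson intervals from recovered reads. Features whose mean reached 10 CPM were tested with limma 3.58.1 in R 4.3.3 (lmFit, eBayes with an intensity trend, no covariate) on log2(value + 100), with Benjamini-Hochberg adjustment over all 1693 features and a threshold of 0.05; the procedure was tested on simulated data. Python 3.11.15 served for the other steps, with scipy 1.17.1, pandas 2.3.3, numpy 2.4.6 and matplotlib 3.10.9. The genes given in every library were, by rule, the 4 with the highest mean CPM in each of core, base and lid, the 3 catalytic subunits, any past the threshold, and of each pathway list the 3 with the highest mean CPM and any past the threshold. The proteasome genes, the lists and the rule were chosen with earlier results of these data known. Alternatives changed the pseudocount, the filter, the total, the test and the libraries; settings on feature length, on RPN1 with RPN2, on leaving out ethanol replicates 1 and 2 together, and those for pathway genes were added after seeing the data.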

Additional observations from a re-analysis of the deposited data

How the results depend on the processing

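The total decided the direction of the sums. On the deposited CPM the log2 ratios of the proteasome, core, base and lid shares were -0.26, -0.25, -0.32 and -0.17, and with ENO2 in the nuclear mRNA total -1.24, -1.20, -1.37 and -1.10. Without ribosomal protein genes in the total the proteasome and core ratios were 0.54 and 0.57, against nuclear mRNAs of like length the core ratio was 0.76, and without RPN1 and RPN2 the base ratio was 0.77. Leaving out each library gave 0.61 to 0.71 for the proteasome, 0.62 to 0.71 for the core, 0.40 to 0.64 for the base and 0.68 to 0.85 for the lid.

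Of the 32 genes, 6 passed in the limma fit reported; 2 passed with no filter, 0 of the 1 tested at 50 CPM (limma, 0 also at an unadjusted p under 0.05), 0 on the deposited CPM (limma, 0 at an unadjusted p under 0.05), 23 with ENO2 in the total, and 0 to 10 when each library was left out. Of all features 622 passed (297 higher, 325 lower), and with no filter 672 of 5522 did (298 higher, 374 lower). The count was 200 at 50 CPM, where 322 were tested, and 241 on the deposited CPM (42 higher, 199 lower). With ENO2 in the total it was 1286 (95 higher, 1191 lower), and 277 to 907 when each library was left out. Centring, which moved the median of all features from -0.18 to -0.30, left 5 of the 32, all higher, where 265 of 1693 features passed as higher.

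Of the 32 log2 fold changes, 28 were above 0 in the fit reported, 5 on the deposited CPM and 0 with ENO2 in the total. Of the genes given with values in every library, those that reversed on the deposited CPM were SCL1 (-0.42), PRE5 (-0.59), PRE10 (-0.62), PRE3 (-1.04), RPN2 (-1.18), RPT1 (-0.85), RPN6 (-0.27), RPN8 (-0.35), CDC48 (-1.05), UBA1 (-1.08) and RPN4 (-0.0092). With ENO2 in the total they were SCL1 (-0.60), PRE5 (-0.69), PRE10 (-0.74), PRE3 (-0.80), PUP1 (-0.32), PUP2 (-0.28), RPN2 (-1.23), RPT1 (-0.82), RPT5 (-0.32), RPN10 (-0.23), RPN6 (-0.52), RPN3 (-0.32), RPN8 (-0.50), UMP1 (-0.17), CDC48 (-1.26), UBA1 (-1.001), SHP1 (-0.17) and RPN4 (-0.16). PRE2 was 0.0032 with a pseudocount of 1000, 0.023 by voom, 0.42 without ethanol replicate 2 and 0.48 without ethanol replicates 1 and 2. RPN2 was -0.014 by voom, -0.13 without ethanol replicate 1 and -0.30 without ethanol replicates 1 and 2, where RPN1 was 0.066 and BLM10 0.50. With each library left out, RPT1 ranged from -0.10 (without ethanol replicate 2) to 0.94, RPN5 from -0.23 to 0.13 (without ethanol replicate 3; 0.033 without glucose replicate 1), PRE2 from -0.40 to 0.42, RPN2 from -0.13 to 0.39 and BLM10 from -0.46 to 0.078. BLM10 was 0.31 by voom, 0.078 without ethanol replicate 1 and 0.69 with the length trend removed. The cause was not tested. With the replicate number as a block, 5 of the 32 and 641 features passed, and RPN6 no longer did (limma adjusted p = 0.0788). Deviations of same-numbered libraries had correlations of -0.094, -0.057 and 0.025, and those of differently numbered libraries ran from -0.096 to 0.147. With so few reads in ethanol replicates 1 and 2, these values cannot decide whether the numbers pair the cultures. Depth limits single genes most in ethanol replicate 1, with a median of 3 reads a gene.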
